A study of Mus musculus with 2 samples.

Results

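The replication-dependent histone genes are the genes of the Hist1, Hist2, Hist3 and Hist4 clusters, taken here as every symbol that starts with Hist1h, Hist2h, Hist3h or Hist4h. This rule gave 67 of the 32286 features, 6 for the linker histone H1, 18 for H2A, 18 for H2B, 12 for H3 and 13 for H4. On mm10, 54 of them lie on chromosome 13 between 21715763 and 23934851, 10 on chromosome 3 between 96219865 and 96270132, 2 on chromosome 11 and 1 on chromosome 6.

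The cells were leukocytes from left ventricles of mice that had received a bone marrow transplant (BMT) and then TAC (transverse aortic constriction), an operation that narrows the aorta and puts a pressure load on the left ventricle. The transplanted marrow had the genotype LOY (loss of the Y chromosome) in one group and Control in the other, and both groups had the same transplant and the same TAC treatment. How the Y chromosome was lost, the host genotype, the ages and the time after TAC are not given in the sources used here. Live CD45+ RFP+ cells, those labelled as coming from the transplanted marrow, were sorted for single-cell RNA sequencing in droplets, which counts transcripts near their 3′ end once per unique molecular identifier (UMI). Each group was 1 library of 3 mice pooled after sorting, so there was no replicate, no test was run, and the library and the genotype cannot be told apart. All intervals are 95% intervals that cover counting error only.

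The LOY library held 5475 barcodes with 18710715 UMIs and a median of 3026 UMIs, against 7276 barcodes, 42640861 UMIs and a median of 5109.5 UMIs in the control library. After filters 5178 LOY and 6904 control cells remained, and 31 barcodes occurred in both libraries (29 kept cells in each). As a check of the labels, the sum of 4 Y-linked genes (Ddx3y, Eif2s3y, Kdm5d and Uty) was 14 UMIs per 1000000 UMIs (CPM) in LOY cells (12.3 to 15.9) and 124 CPM in control cells (121 to 128). Macrophage-like cells numbered 3142 in the LOY and 4767 in the control library, and all 9 macrophage markers (among them Adgre1, Cd68, C1qa and Csf1r) stood at 10 CPM or more in cells that passed the cell cycle lists and in non-cycling cells, in both libraries. Of the marker lists of other cell types in these cells, T cell markers summed to at most 5.70 CPM and monocyte markers to between 399 and 516 CPM. The 6 B cell markers summed to 144 CPM in LOY and 304 CPM in control S and G2/M cells, and to 206 CPM in LOY and 411 CPM in control non-cycling cells, with 2 markers at 10 CPM or more in each. The 5 erythroid markers summed to 1.19 CPM in LOY and 232 CPM in control non-cycling cells, and to 2.12 CPM in LOY and 3.11 CPM in control S and G2/M cells. The 6 plasmacytoid dendritic cell markers summed to between 769 and 1095 CPM, and the 5 platelet markers, of which 1 reached 10 CPM, to between 1895 and 2106 CPM. The part of these RNAs in the histone ratios was not tested. Different clusters held most macrophages in the 2 libraries. In the LOY library these were the cluster led by Spp1, Ctsd and Trem2 (1410 LOY and 26 control cells) and the cluster led by Fcna and Lyve1 (597 LOY and 445 control cells). In the control library they were the clusters led by H2-Eb1 (250 LOY and 997 control cells), Pla2g2d (105 LOY and 952 control cells) and Rgs1 and Egr1 (69 LOY and 937 control cells). Cluster 1, led by Ly6c2, Ly6a and Tmem119 (885 LOY and 26 control cells), is not in the macrophage-like class. It was closest to macrophages, with 8 markers found, but its top genes held more monocyte markers. Its histone sum was 347 CPM in LOY and 157 CPM in control. The genes of the histone clusters and of the cell cycle lists were kept out of the clustering. A macrophage-like cluster of cycling cells still formed, led by Hist1h1b, Top2a and Mki67. By the cell cycle lists described below, 98.3% of its LOY and 97.8% of its control cells were in cycle.

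Histone proteins package DNA into nucleosomes, which are built from H2A, H2B, H3 and H4, and H1 binds the DNA between them. A cell that copies its genome needs new histones at the same pace, and the clustered genes are switched on together at the start of S phase by the factor NPAT. Their mRNAs usually end after a short stem-loop instead of a poly(A) tail. The stem-loop binding protein SLBP holds this stem-loop, directs processing and translation, and the mRNAs are degraded when DNA synthesis stops. A few members can also end in a poly(A) tail, above all in cells that have left the cell cycle. The kit used here primes on runs of A, so a member's UMIs reflect how its mRNA ends as well as how much of it there is, and levels of different members are not compared as amounts of mRNA.

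The ends of 8 members that carry much of what follows are shown first, each as 30 bases of the GENCODE M21 transcript (mm10, 5′ to 3′) with the 16-base stem-loop in capitals. The sequence from Hist1h2ap has 12 adenosines in a row before the stem-loop, while the other 7 have interrupted runs.
Hist1h2ap, chr13:21833027-21833056, minus strand: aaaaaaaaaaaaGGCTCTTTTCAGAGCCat
Hist1h2ab, chr13:23751560-23751589, plus strand: aaccaaaacaaaGGCTCTTTTCAGAGCCac
Hist2h2ac, chr3:96220416-96220445, minus strand: cgaatccaaaaaGGCTCTTTTTAGAGCCac
Hist3h2a, chr11:58955160-58955189, plus strand: acagacaccaaaGGCTCTTTTCAGAGCCac
Hist1h3e, chr13:23561901-23561930, minus strand: gtaaaccaaaacGGCTCTTTTAAGAGCCac
Hist1h4d, chr13:23581938-23581967, plus strand: ccaaaaaccaaaGGCCCTTTTCAGGGCCac
Hist1h1c, chr13:23739500-23739529, plus strand: aacaatccaaaaGGCTCTTTTCAGAGCCac
Hist1h1e, chr13:23621780-23621809, minus strand: caacaacccaaaGGCTCTTTTCAGAGCCac

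Such a stem-loop was found in an annotated transcript of 44 of the 67 members. A poly(A) signal (AATAAA or ATTAAA) in the last 50 bases of a transcript was found for 17 members, and 13 had both. Several members without a stem-loop have short annotated transcripts, such as 381 bases for Hist1h2bl and 312 bases for Hist1h4k, which may leave out the 3′ end. A stem-loop or signal that was not found is thus not shown to be absent. Hist1h2ap ended 3 bases after the stem-loop and Hist1h2ab 11 bases after it. The annotated transcripts of Hist1h4d, Hist1h1c, Hist1h1e and Hist3h2a ran on for 770, 840, 1153 and 1643 bases beyond it. Of the members, 58 shared an exact run of 90 bases with at least 1 other member, so the assignment of UMIs among them is uncertain, and 7 overlapped another gene on the same strand. Hist1h1b, the member with the most UMIs in macrophage-like cells that were in cycle, shared no such run.

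Promoters of 62 members were matched in RefSeq (GRCm38.p6, 250 bases before to 50 bases after the start). A CCAAT motif (CCAAT on either strand, so also ATTGG) stood in 53 of 62 of these windows (85.5%), against 41.1% of the 27025 genes in the table. Windows of H1, H2A, H2B and H3 members held it in every case, and 3 of 12 H4 windows (25%) did. A TATA motif (TATAAA or its reverse, TTTATA) stood in 35 of 62 (56.5%), against 15.7% of all genes. The octamer ATTTGCAT, or ATGCAAAT, stood in 14 of 62 (22.6%), against 1.97%, in 7 H2A and 7 H2B windows and in no window of the other types. The H1 box (AAACACA or TGTGTTT) stood in 5 of 6 H1 windows, and in 14.5% of member windows against 8.22% of all genes. Neighbouring H2A and H2B genes share some of these windows, and the motifs do not overlap each other in the sequences shown. The windows of Hist1h1b and Hist1h4d, the leading H1 and H4 genes in cycling cells, follow with every motif match in capitals.
Hist1h1b, chr13:21780576-21780875, minus strand: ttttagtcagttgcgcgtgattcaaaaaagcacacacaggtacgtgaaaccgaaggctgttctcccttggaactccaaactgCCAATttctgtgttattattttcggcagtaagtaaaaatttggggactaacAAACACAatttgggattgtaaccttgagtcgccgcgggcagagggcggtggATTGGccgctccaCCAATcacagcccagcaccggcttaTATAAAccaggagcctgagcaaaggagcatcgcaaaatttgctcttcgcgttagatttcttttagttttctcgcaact
Hist1h4d, chr13:23581318-23581617, plus strand: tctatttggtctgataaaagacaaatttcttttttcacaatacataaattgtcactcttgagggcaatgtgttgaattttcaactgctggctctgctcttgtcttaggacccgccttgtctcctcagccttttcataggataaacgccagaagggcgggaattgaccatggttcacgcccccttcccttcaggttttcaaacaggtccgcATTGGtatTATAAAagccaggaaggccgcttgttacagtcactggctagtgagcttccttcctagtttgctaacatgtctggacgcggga
The window of Hist1h1b held 3 CCAAT motifs, 1 H1 box and 1 TATA motif, and that of Hist1h4d 1 CCAAT motif and 1 TATA motif.

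In all kept cells the 67 members had 19482 UMIs in the LOY library and 23194 in the control library. Hist2h2aa2, Hist1h2bq and Hist1h2ba had 0 UMIs, and 25 members, these included, had under 50 UMIs over both libraries. H1 had 6416 UMIs in LOY cells and 8098 in control cells, H2A 4241 and 5665, H2B 3195 and 5890, H3 2651 and 1120, and H4 2979 and 2421. The H3 and H4 genes had more UMIs in the smaller LOY library, and the other types had fewer.

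Macrophage-like cells were sorted into cycle states by 2 lists that hold no member, 32 genes of DNA licensing and synthesis (the S list, such as Mcm2 and Pcna) and 30 genes of mitosis (the G2/M list, such as Mki67 and Top2a). A cell passed the S list at 15 or more of its UMIs per 10000 and the G2/M list at 5 or more per 10000, with at least 3 UMIs in either case. Cells that passed both lists are called S and G2/M cells, and cells that passed neither are called non-cycling. In the LOY library 251 cells passed both lists, 200 passed the G2/M list alone, 179 the S list alone and 2512 neither. In the control library these numbers were 108, 125, 120 and 4414. In shallow cells the minimum of 3 UMIs put the G2/M threshold above 5 per 10000. Median depth was 3202 UMIs in LOY and 5840 UMIs in control macrophages, so this threshold was stricter in LOY. Cells that passed the G2/M list alone had a G2/M list sum of 7208 CPM in LOY and 5516 CPM in control. Shares and ratios by state thus compare unequally gated cells, and the part of this was not tested beyond the thinned values. Cycling cells of any kind made up 20.1% of LOY macrophages (18.7% to 21.5%) and 7.41% of control macrophages (6.68% to 8.19%). With every cell thinned to 2000 UMIs, which left out 506 LOY and 108 control cells, the shares were 22.6% and 8.99%. At that depth the minimum of 3 UMIs put the G2/M threshold above 5 per 10000, equally in both libraries. Cells within 25% of either threshold made up 10.4% of LOY and 5.94% of control macrophages, so some cells lie close to the line. Halving both thresholds gave 24.8% in LOY and 13.9% in control, and clusters led by cell cycle genes, when those genes were kept in the clustering, held 9.12% in LOY and 3.25% in control.

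The histone sum differed between these states, in the same order in both libraries, but it was not raised in every cycling state. In S and G2/M cells it was 7614 CPM in the LOY library, against 372 CPM in its non-cycling cells, a 20.5-fold difference. In the control library it was 4533 CPM in S and G2/M cells and 346 CPM in non-cycling cells, 13.1-fold. Cells that passed the G2/M list alone stood between, at 2141 CPM in LOY and 1358 CPM in control macrophages. Cells that passed the S list alone had the lowest sums of all, 226 CPM in LOY and 154 CPM in control macrophages, 0.61 and 0.44 of the non-cycling level. All cycling cells together had 4156 CPM in the LOY library, 11.2 times its non-cycling level (10.8 to 11.6), and 2232 CPM in the control library, 6.46 times (6.27 to 6.66). In the Lyve1 cluster taken alone the cycling cells were 1.34 times the non-cycling level in LOY and 0.887 times in control. Most S and G2/M cells had been drawn into the cluster led by Hist1h1b, Top2a and Mki67 (194 of 251 in LOY and 81 of 108 in control). Few of them remained in the Lyve1 cluster (24 in LOY and 5 in control), so its values do not stand for all cycling Lyve1 macrophages. Members measured at 10 CPM or more in either state of the LOY library numbered 38, of which 35 were over 1.5-fold higher in S and G2/M cells and 2 lower. Of all genes measured in that comparison 13.6% were higher and 4.49% lower. In the control library 34 members were measured, 31 higher and 2 lower, beside 14% and 4.49% of all genes. The 2 lower members were Hist3h2a and Hist1h2bc in each library. In non-cycling cells 58 of the 67 members lay under 10 CPM in both libraries. Such members could pass the filter only through S and G2/M cells, so these counts favour higher calls. The median log2 ratio of S and G2/M over non-cycling cells was 3.03 in LOY and 1.76 in control for the measured members. Over all 67 members it was 1.005 in LOY and 0.66 in control. These folds and log2 ratios are on the scale with 10 CPM added to each level, which understates differences of low genes.

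**Figure D1:**
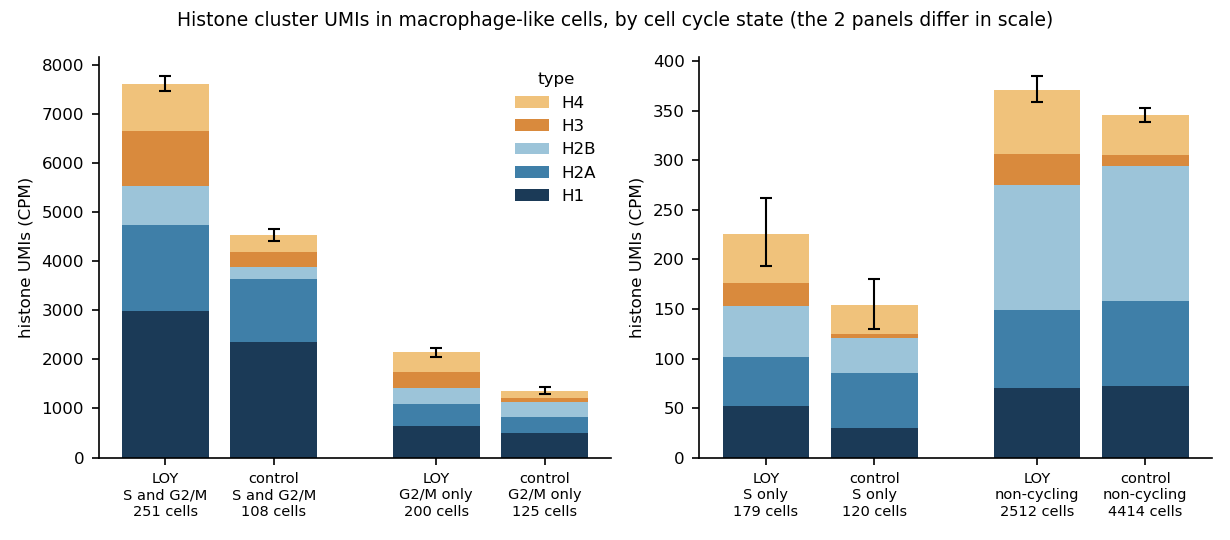
Summed histone level in macrophage-like cells by cycle state and library, in CPM, with the LOY bar left of the control bar and each bar divided by histone type. Error bars are 95% Poisson intervals of the sum. The panels differ in scale. S and G2/M cells reach 7614 CPM in the LOY and 4533 CPM in the control library, and non-cycling cells 372 and 346 CPM.

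The difference between the libraries depended on the state. Over all macrophage-like cells the histone sum was 1396 CPM in the LOY and 539 CPM in the control library, a ratio of 2.59 (2.53 to 2.65). In non-cycling cells it was 372 CPM in the LOY and 346 CPM in the control library, a ratio of 1.08 (1.03 to 1.12). The ratio was 1.68 in S and G2/M cells (1.63 to 1.73), 1.58 in cells that passed the G2/M list alone (1.47 to 1.69) and 1.47 in cells that passed the S list alone (1.18 to 1.84). The ratio over all cells was thus larger than that in any single state. S and G2/M cells held 67% of the histone UMIs of LOY macrophages from 12.3% of their UMIs, and 33.7% of the histone UMIs of control macrophages from 4.01% of their UMIs. The LOY levels of each state combined at the control mix of states gave 713 CPM, and the control levels at the LOY mix gave 929.9 CPM. In the Lyve1 cluster the direction was the other way, at 388 CPM in LOY and 444 CPM in control cells, a ratio of 0.875, and in its non-cycling cells at 363 CPM in LOY and 448 CPM in control, a ratio of 0.810 (0.742 to 0.885). Of 9 macrophage-like clusters with at least 10 non-cycling cells in each library, 4 had a non-cycling ratio above 1 and 5 below, from 0.615 in the cluster led by Ccl24 to 1.29 in that led by Rgs1 and Egr1. The interval held 1 in 7 of them, lay above 1 in the H2-Eb1 cluster (1.20, 1.01 to 1.41) and below 1 in the Lyve1 cluster, so the non-cycling ratio of 1.08 joins clusters of both directions. The Lyve1 cluster held 24 of the 251 LOY and 5 of the 108 control S and G2/M cells.

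The lists that chose the S and G2/M cells had similar sums in the 2 libraries. The S list summed to 3672 CPM in LOY and 3853 CPM in control cells, and the G2/M list to 4578 CPM in LOY and 5107 CPM in control cells. The thresholds act on these same lists, so similar sums do not show that the cells matched in cycle position. The 2 libraries also had most of these cells in the same cluster, led by Hist1h1b, Top2a and Mki67, with 194 of 251 LOY cells (77.3%) and 81 of 108 control cells (75%). Within that cluster the sum in S and G2/M cells was 9611 CPM in the LOY library (9427 to 9797) and 5366 CPM in the control library (5221 to 5514). Other measures moved with the library as well. The median depth of S and G2/M cells was 5323 UMIs in LOY and 10766 UMIs in control. Mitochondrial UMIs made up 2.30% in LOY and 3.51% in control cells, and the 15 dissociation genes (such as Fos and Jun) summed to 3577 CPM in LOY and 8609.6 CPM in control cells. The ribosomal-repeat transcript Gm42418 stood at 32449.9 CPM in LOY and 23068 CPM in control cells. The part of depth and RNA quality in the histone ratios was not tested beyond the alternatives given at the end.

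Single cells spread widely. Among S and G2/M cells the LOY median was 65.9 histone UMIs per 10000, with a 10th to 90th percentile range of 1.87 to 190.1, and the control median was 39.5 with a range of 1.15 to 101. Rates of 50 or more per 10000 were reached by 136 of 251 LOY cells (54.2%) and 48 of 108 control cells (44.4%). Cells that passed the G2/M list alone had medians of 7.86 in LOY and 6.46 in control, and non-cycling cells 2.83 in LOY and 2.44 in control. The groups of the 2 libraries overlap in every state. Thinned to 2000 UMIs per cell, Hist1h1b was seen in 71.9% of LOY and 76.1% of control S and G2/M cells. It was seen in 0.88% of LOY and 0.26% of control non-cycling cells (18 of 2040 and 11 of 4240). In control neutrophil-like cells, a class that should lack it, it was seen in 0 of 160 non-cycling cells at the same depth, which allows a share of up to 1.88%. That class is thus too small to set a background for the shares in non-cycling macrophages.

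**Figure D2:**
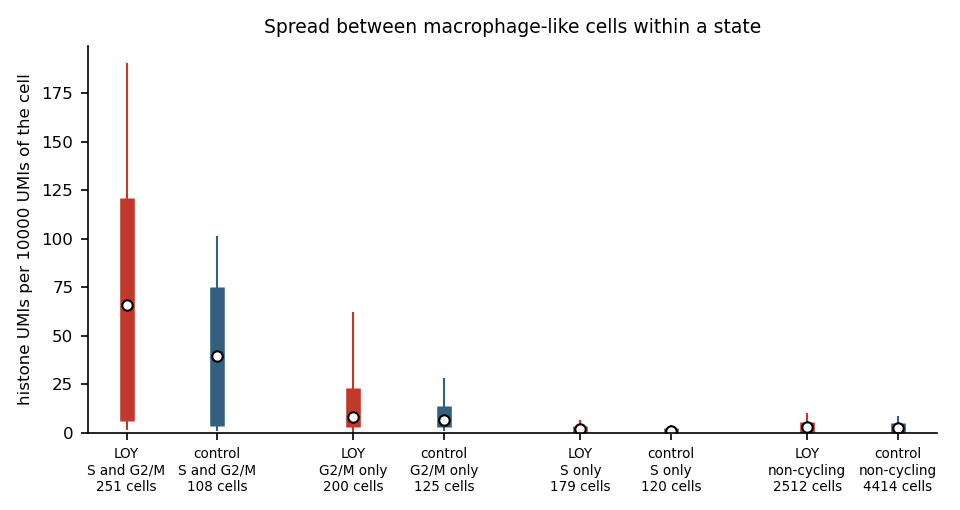
Histone UMIs per 10000 UMIs of each macrophage-like cell by state, with LOY left of control. Dots are medians, thick bars quartiles and thin lines the 10th to 90th percentile. In S and G2/M cells the medians are 65.9 in LOY and 39.5 in control, and the ranges overlap.

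The ratio between the libraries also depended on the histone type. In S and G2/M cells H1 had 2981 CPM in the LOY and 2344 CPM in the control library, a ratio of 1.27 (1.21 to 1.33). H2A had 1757 CPM in LOY and 1282 CPM in control, a ratio of 1.37 (1.29 to 1.46). Without Hist1h2ap, an H2A gene described below, H2A had 1738 CPM in LOY and 789 CPM in control, a ratio of 2.20 (2.04 to 2.37). The other 3 types lay further apart. H2B had 795 CPM in LOY and 253 CPM in control, a ratio of 3.14 (2.77 to 3.56). H3 had 1124 CPM in LOY and 312 CPM in control, a ratio of 3.6 (3.22 to 4.03). H4 had 957 CPM in LOY and 341 CPM in control, a ratio of 2.81 (2.52 to 3.13). The intervals of H1 and H2A, with or without Hist1h2ap, do not reach those of H2B, H3 and H4.

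In non-cycling macrophages only H3 and H4 stood above 1. H3 had 31.4 CPM in the LOY and 11.3 CPM in the control library, a ratio of 2.78 (2.35 to 3.28), and H4 had 65.4 CPM in LOY and 39.9 CPM in control, a ratio of 1.64 (1.48 to 1.82). H1 had 70.8 CPM in LOY and 72.4 CPM in control (0.98, 0.89 to 1.07). H2A had 78.1 CPM in LOY and 85.4 CPM in control (0.91, 0.838 to 0.997), and without Hist1h2ap 78.1 CPM in LOY and 82.2 CPM in control (0.95, 0.871 to 1.04). H2B had 126 CPM in LOY and 137 CPM in control (0.92, 0.86 to 0.99). In cells that passed the G2/M list alone the ratios were 1.26 for H1, 1.44 for H2A, 1.03 for H2B (0.88 to 1.21), 4.41 for H3 and 2.73 for H4. Of the 5 types H2B had the widest range of ratios over these 3 states.

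**Figure D3:**
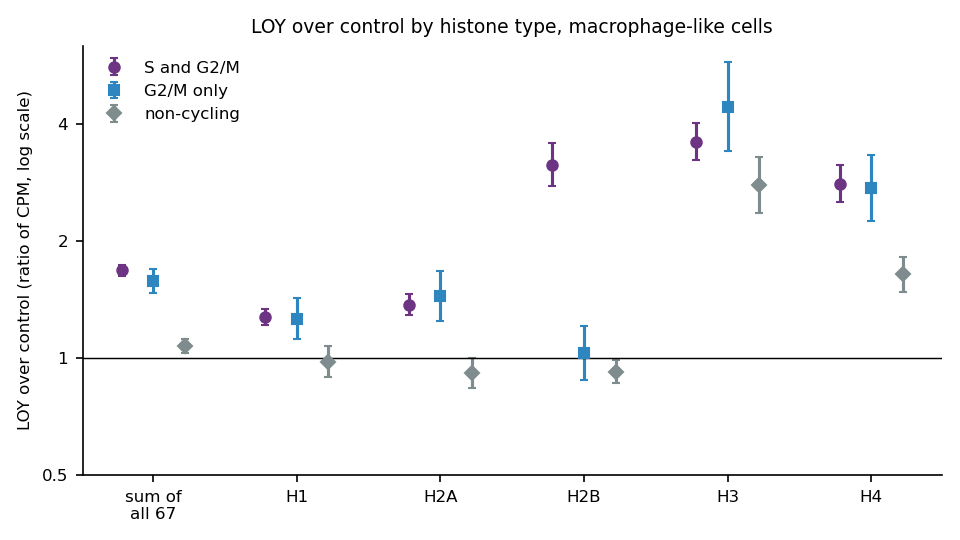
LOY over control ratio of the summed level of each histone type in macrophage-like cells, on a log axis, for S and G2/M, G2/M only and non-cycling cells. Lines are 95% counting intervals. H3 is at 2.78 or above in all 3 states, while H2A and H2B are at 0.91 and 0.92 in non-cycling cells.

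The types also differed in how closely they followed the cycle. In the LOY library S and G2/M cells were 42.1-fold above non-cycling cells for H1, 35.8-fold for H3, 22.5-fold for H2A, 14.6-fold for H4 and 6.32-fold for H2B. In the control library they were 32.4-fold above for H1, 27.6-fold for H3, 15.0-fold for H2A, 8.55-fold for H4 and 1.85-fold for H2B. The order of the 5 types was the same in both libraries. These folds come from captured UMIs, and in non-cycling cells a few members made up most of the sum. Hist1h2bc gave 24.4% of it in LOY and 31.3% in control cells, and Hist3h2a 12.6% in LOY and 20.3% in control cells. In S and G2/M cells Hist1h1b gave 24.3% of the sum in LOY and 33.3% in control cells.

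Among the linker histones, Hist1h1b, which encodes H1.5 (ENSMUSG00000058773, chromosome 13, 21779883 to 21780625), was tied most closely to the cycle. It had 1851 CPM in LOY and 1509.7 CPM in control S and G2/M cells, and 3.21 CPM in LOY and 1.46 CPM in control non-cycling cells. Hist1h1e (H1.4) had 653 CPM in LOY and 519 CPM in control S and G2/M cells, and 24.9 and 19.7 CPM in non-cycling cells. Hist1h1d (H1.3) had 155 CPM in LOY and 91.1 CPM in control S and G2/M cells, and 4.64 and 1.36 CPM in non-cycling cells. These 3 genes were higher in LOY cells in both states, with ratios in S and G2/M cells of 1.23 (1.16 to 1.30), 1.26 (1.14 to 1.39) and 1.70 (1.36 to 2.15). Hist1h1c (H1.2), a linker histone that cells also make outside S phase, had 215 CPM in LOY and 149 CPM in control S and G2/M cells, a ratio of 1.44. In non-cycling cells it had 36.9 CPM in LOY and 49.4 CPM in control, a ratio of 0.746 (0.658 to 0.844), so its direction differed between the states.

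Over all macrophages the H2A genes held both the highest and the lowest log2 ratio of the members with at least 50 UMIs. Hist2h2ac (ENSMUSG00000068855, chromosome 3, 96220361 to 96220880) had 539 CPM in LOY and 178 CPM in control S and G2/M cells, a ratio of 3.02 (2.60 to 3.52). In non-cycling cells it had 16.4 CPM in LOY and 4.24 CPM in control. Hist1h2ab (ENSMUSG00000061615, chromosome 13, 23751126 to 23751598) had 448 CPM in LOY and 125 CPM in control S and G2/M cells, a ratio of 3.6 (3.02 to 4.31). Over all macrophages it had 65.7 CPM in LOY and 6.21 CPM in control, and its log2 ratio of 2.22 was the highest. Hist1h2ae was close between the libraries in S and G2/M cells, at 395 CPM in LOY and 367 CPM in control (1.08, 0.95 to 1.22).

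Hist1h2ap (ENSMUSG00000094777, chromosome 13, 21833026 to 21833507) went the other way and had the lowest log2 ratio of the members, -1.48 over all macrophages. It had 19.8 CPM in LOY and 493 CPM in control S and G2/M cells, a ratio of 0.040 (0.026 to 0.059). In control S and G2/M cells it ranked 3 by UMIs among the members, at 10.9% of the sum. In non-cycling macrophages it had 0 UMIs in 2512 LOY cells, which allows up to 0.357 CPM, and 3.23 CPM in control. The same was seen outside macrophages. It had 2 UMIs in LOY and 135 in control cDC-like cells, 2 in LOY and 44 in control T cell-like cells, and 0 in LOY and 44 in control B cell-like cells, where 0 allows up to 13.8 CPM. Over all kept cells it had 35 UMIs in the LOY and 1077 in the control library. The sequence of Hist1h2ap shares a run of 90 bases with 14 other members, Hist1h2ab among them, and these 2 genes had opposite directions. Whether UMIs were assigned to different copies in the 2 libraries was not tested.

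Hist3h2a (ENSMUSG00000078851, chromosome 11, 58954685 to 58956830) had the most UMIs of the H2A genes in non-cycling macrophages of both libraries. It had 46.7 CPM in LOY and 70.1 CPM in control non-cycling cells, a ratio of 0.666 (0.597 to 0.743), and 11.3 CPM in LOY and 15.6 CPM in control S and G2/M cells. Its level in S and G2/M cells was 0.24 of the non-cycling level in LOY and 0.22 in control. It overlaps Trim17 on the same strand, so some of its UMIs may be shared with that gene.

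Hist1h2bc (ENSMUSG00000018102, chromosome 13, 23684199 to 23692908), the H2B gene with the most UMIs, had the same pattern as Hist3h2a. It had 90.7 CPM in LOY and 108 CPM in control non-cycling cells (0.84, 0.78 to 0.91), and 20.5 CPM in LOY and 32.7 CPM in control S and G2/M cells. Its S and G2/M level was 0.23 of the non-cycling level in LOY and 0.30 in control. Hist3h2ba had 13.2 CPM in LOY and 15.8 CPM in control non-cycling cells, and its interval held 1 (0.835, 0.672 to 1.03). The other H2B genes behaved differently. Hist1h2be had 155 CPM in LOY and 40.5 CPM in control S and G2/M cells, a ratio of 3.84 (2.82 to 5.29), and overlaps Hist1h1e on the same strand. Hist2h2bb had 177 CPM in LOY and 39.7 CPM in control S and G2/M cells, a ratio of 4.46 (3.29 to 6.15), and overlaps Gm42743 on the same strand. H2B thus joined 1 high gene of non-cycling cells with a group of cycling genes that were higher in LOY.

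The 4 H3 genes with the most UMIs had higher values in LOY cells in both states. Hist1h3e (ENSMUSG00000069273, chromosome 13, 23561534 to 23562369) had 342 CPM in LOY and 70.9 CPM in control S and G2/M cells, a ratio of 4.83 (3.86 to 6.11). In non-cycling cells it had 9.75 CPM in LOY and 1.91 CPM in control, a ratio of 5.10 (3.58 to 7.32). Hist1h3c had 351 CPM in LOY and 104 CPM in control S and G2/M cells, a ratio of 3.37 (2.78 to 4.11), and 0.24 CPM in LOY non-cycling cells, against 0 UMIs in control, which allow up to 0.104 CPM. Hist1h3c was thus near 0 out of cycle in these libraries, whereas Hist1h3e was not. Hist1h3f had 164 CPM in LOY and 38.9 CPM in control S and G2/M cells, and 2.14 CPM in LOY and 0.38 CPM in control non-cycling cells. Hist1h3d had 35.3 CPM in LOY and 23.4 CPM in control S and G2/M cells (1.51, 0.94 to 2.46), and 11.5 CPM in LOY and 4.69 CPM in control non-cycling cells (2.46, 1.87 to 3.22). Hist2h3c1, among the 5 lowest ratios of the members, had only 18 UMIs in LOY and 66 in control macrophages and an interval that held 1.

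Most of the H4 sum in S and G2/M cells came from 1 gene. Hist1h4d (ENSMUSG00000061482, chromosome 13, 23581598 to 23582735) had 812 CPM in LOY and 262 CPM in control S and G2/M cells, a ratio of 3.1 (2.75 to 3.51). It had 42.1 CPM in LOY and 17.3 CPM in control non-cycling cells, a ratio of 2.44 (2.12 to 2.80), beside an H4 sum there of 65.4 CPM in LOY and 39.9 CPM in control. Hist1h4i had 35.3 CPM in LOY and 24.9 CPM in control S and G2/M cells, and 12.5 CPM in LOY and 12.1 CPM in control non-cycling cells (1.03, 0.822 to 1.29). Hist1h4h had 24.7 CPM in LOY and 21.8 CPM in control S and G2/M cells, and Hist4h4 12.7 CPM in LOY and 5.45 CPM in control. The intervals of these last 3 genes held 1 in both states. All H4 genes encode the same protein, so these differences lie between gene copies of 1 histone.

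**Figure D4:**
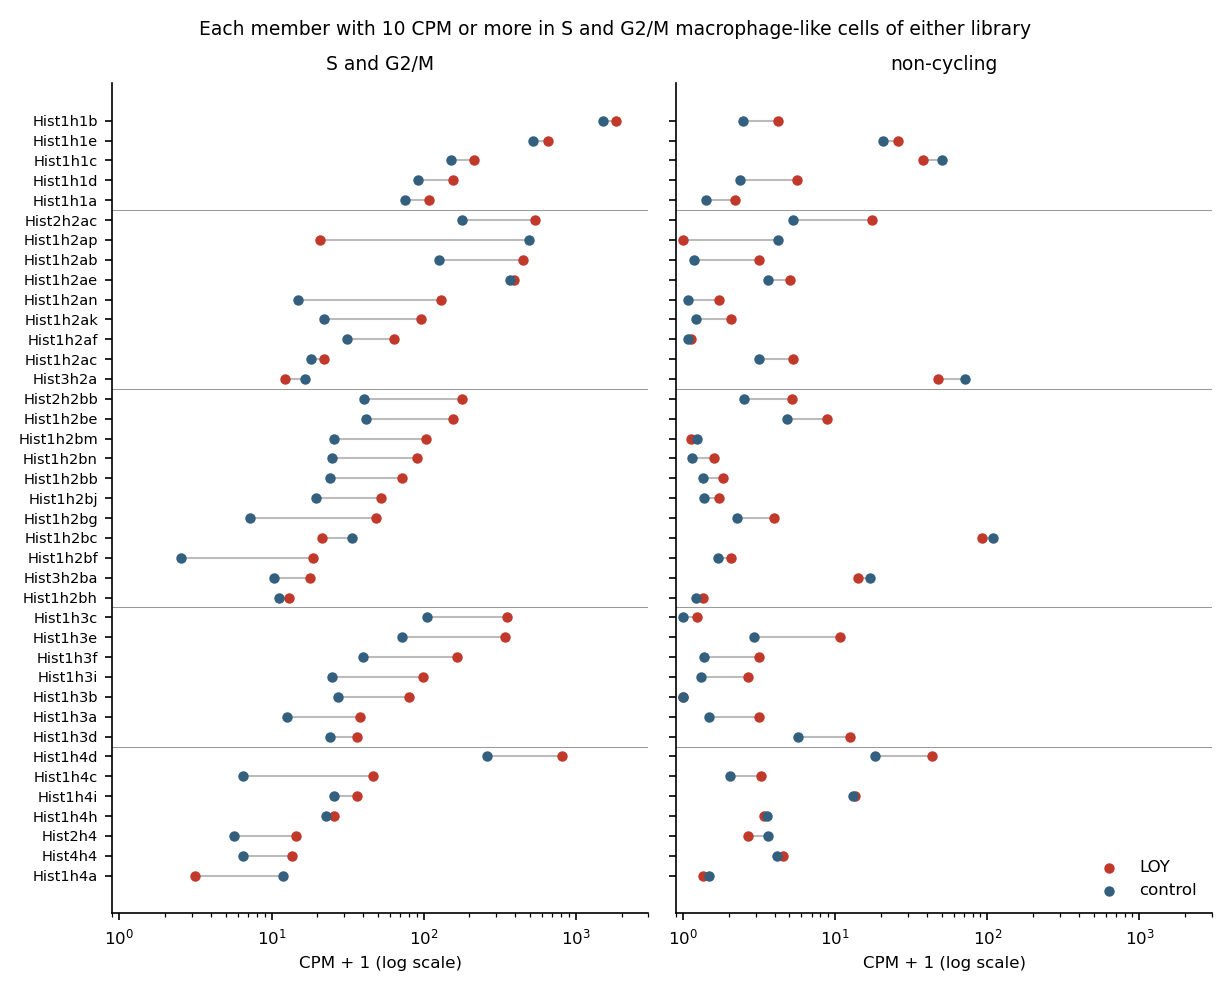
Level of each member with at least 10 CPM in S and G2/M cells of either library, as CPM + 1 on a log axis, in S and G2/M cells and in non-cycling macrophage-like cells, grouped by type. The LOY and control points of a member share a row and are joined by a line. Hist1h2ap stands at 19.8 CPM in LOY and 493 CPM in control S and G2/M cells, a gap in the other direction from most members.

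Counted as members, 27 were measured at 10 CPM or more in all macrophage-like cells. Of these 21 were over 1.5-fold higher in LOY, 2 lower (Hist1h2ap and Hist3h2a) and 4 within, beside 6.57% higher and 7.81% lower among all genes measured. The median log2 ratio was 1.12 for these members and -0.01 for all genes measured. Members low in control could pass the filter through LOY cells alone, and 40 members did not pass it. Over all 67 members the median was 0.16. With 50 CPM added in place of 10, 8 members were higher and 0 lower, and in the Lyve1 cluster 4 were higher. By type 4 of 5 H1, 5 of 7 H2A, 5 of 7 H2B, 6 of 6 H3 and 1 of 2 H4 genes were higher. In S and G2/M cells 39 members were measured, 23 higher and 2 lower (Hist1h2ap and Hist1h4a), beside 7.12% and 12.1% of all genes, with a median of 1.10 against -0.06. Over all 67 members the median there was 0.38. Here 1 of 5 H1, 5 of 9 H2A, 8 of 11 H2B, 6 of 7 H3 and 3 of 7 H4 genes were higher. In non-cycling cells 9 were measured, 2 higher (Hist2h2ac and Hist1h4d), 0 lower and 7 within, beside 5.4% higher and 8.05% lower among all genes. Non-cycling members were thus few at this depth, since 58 of the 67 lay under 10 CPM in both libraries.

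Members were also summed by whether a poly(A) signal lies near the annotated end. In non-cycling macrophages the 17 with a signal summed to 134 CPM in LOY and 169 CPM in control, a ratio of 0.79 (0.74 to 0.85). Hist3h2a and Hist1h1c, 2 of the 17, carried this direction. The other 15 summed to 50.5 CPM in LOY and 49.6 CPM in control, a ratio of 1.02 (0.91 to 1.14). The 50 without one summed to 237 CPM in LOY and 176 CPM in control, a ratio of 1.35 (1.28 to 1.42). In S and G2/M cells both groups were higher in LOY. Those with a signal had 903 CPM in LOY and 672 CPM in control (1.34, 1.23 to 1.47), and those without had 6711 CPM in LOY and 3861 CPM in control (1.74, 1.68 to 1.80). Hist1h2bc counts among those without a signal in the annotated transcript, as do members with short annotated transcripts, such as Hist1h2bl and Hist1h4k.

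The histone genes used outside replication had close sums over all macrophages, at 4806 CPM in LOY and 4875 CPM in control. Within states the sum was lower in LOY, at 4074 CPM against 4548 CPM in control non-cycling cells, and also in S and G2/M cells. Of 11 such genes 9 were measured in S and G2/M macrophages, 1 higher and 3 lower in LOY, beside 7.12% higher and 12.1% lower among all genes, and their sum was 7755 CPM in LOY and 9486 CPM in control. H3f3b and H3f3a encode the replacement histone H3.3. H3f3b had 2881 CPM in LOY and 2948 CPM in control S and G2/M cells, and H3f3a 1384 CPM in LOY and 2192 CPM in control. H2afz, for the variant H2A.Z, had 2171 CPM in LOY and 2916 CPM in control. H2afj had 207 CPM in LOY and 95.8 CPM in control (2.16, 1.74 to 2.69), and was also higher in LOY non-cycling cells, at 301 CPM against 121 CPM in control. H2afy, for macroH2A, had 426 CPM in LOY and 284 CPM in control. Lower in LOY were H2afv, at 378 CPM in LOY and 603 CPM in control, H3f3a, and Cenpa, for the centromeric H3, at 80.5 CPM in LOY and 146 CPM in control. Cenpa is also in the G2/M list. Their sum in S and G2/M cells was 1.90 times the non-cycling sum in LOY and 2.09 times in control, against 20.5 and 13.1 times for the clustered genes. H2afx, for the variant H2A.X, stood apart, 24.1-fold higher in LOY and 19-fold higher in control S and G2/M cells.

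Among genes that process and degrade histone mRNA, 24 of 26 were measured in S and G2/M macrophages, 3 higher (Srrt, Lsm11 and Upf1) and 4 lower (Snrpf, Lsm1, Pabpc1 and Snrpb) in LOY, beside 7.12% and 12.1% of all genes. Their sum was 2445 CPM in LOY and 2615 CPM in control. Slbp, for the protein that binds the stem-loop shown above, had 150 CPM in LOY and 221 CPM in control S and G2/M cells (0.68, 0.57 to 0.81), and 29.7 CPM in LOY and 44.8 CPM in control non-cycling cells. It was thus lower in LOY in both states, within the 1.5-fold limit on the scale used. Slbp was 5.06-fold higher in LOY and 4.93-fold higher in control S and G2/M cells than in non-cycling cells. Lsm11, a subunit of the U7 particle that cuts histone mRNA, had 32.5 CPM in LOY and 17.9 CPM in control S and G2/M cells, and Lsm10, its partner, 40.9 CPM in LOY and 35.0 CPM in control. Npat, the activator of the clustered genes, had 19.1 CPM in LOY and 16.4 CPM in control (1.17, 0.63 to 2.17).

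Histone chaperones, which carry new histones to DNA, were close between the libraries. All 24 were measured in S and G2/M macrophages, with 1 higher (Ipo4) and 1 lower (Asf1a), beside 7.12% and 12.1% of all genes, and sums of 3235 CPM in LOY and 3420 CPM in control. Nasp, which holds H3 and H4 in reserve, had 157 CPM in LOY and 112 CPM in control (1.40, 1.13 to 1.74). Asf1b, which hands H3 and H4 to the replication fork machinery, had 90.3 CPM in LOY and 135 CPM in control (0.67, 0.53 to 0.84). Npm1 had 647 CPM in LOY and 657 CPM in control, and Nap1l1 516 CPM in LOY and 557 CPM in control. Of the chaperones 15 of 22 measured in LOY and 17 of 23 in control were higher in S and G2/M than in non-cycling macrophages, beside 13.6% of all genes in LOY and 14% in control. Chaf1b, one of these chaperones, is also in the S list that chose the cells.

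Other cell classes held the members at different levels. B cell-like cells (237 LOY and 813 control) had a sum of 889.6 CPM in LOY and 697 CPM in control, a ratio of 1.28 (1.09 to 1.49). Their H1 genes were close, at 309 CPM in LOY and 334 CPM in control (0.93), and led by Hist1h1e, at 203 CPM in LOY and 193 CPM in control. H3 in these cells had 148 CPM in LOY and 36.1 CPM in control, a ratio of 4.08 (2.59 to 6.32), and H4 203 CPM in LOY and 69.6 CPM in control, a ratio of 2.92 (2.02 to 4.14). Of 20 members measured 10 were higher and 4 lower (Hist1h2ap, Hist1h2bc, Hist1h1b and Hist3h2a), beside 8.94% and 23.3% of all genes. Of the 10, 4 rest on 3 LOY UMIs each (Hist1h3f, Hist1h3d, Hist1h3i and Hist1h3a). These 4 and Hist2h4 lay under 10 CPM in control and passed the filter through LOY cells alone. Hist1h1b and Hist1h2ap had 0 LOY UMIs and passed it through control cells alone. Over all 67 members the median log2 ratio was 0. The median depth of these cells was 854 UMIs in LOY and 2049 UMIs in control.

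T cell-like cells (99 LOY and 272 control) had 1501 CPM in LOY and 468 CPM in control, with 17 LOY and 20 control cells in cycle. Their non-cycling cells had 483 CPM in LOY and 298 CPM in control (1.62, 1.24 to 2.10). NK cell-like cells (47 LOY and 191 control) had 3708 CPM in LOY and 521 CPM in control, with 7 LOY and 16 control cells in cycle. Their non-cycling cells had 591 CPM in LOY and 439.6 CPM in control, and the interval of the ratio held 1 (1.34, 0.933 to 1.89). In both lymphocyte classes the ratio was smaller without the cycling cells. Conventional dendritic cell (cDC)-like cells (63 LOY and 86 control) had 2050 CPM in LOY and 1379 CPM in control (1.49, 1.36 to 1.63), and a cycling share of 36.5% in LOY and 31.4% in control. Their cycling cells gave H3 a ratio of 3.38 (2.62 to 4.36) and H1 a ratio of 1.08 (0.92 to 1.27). Non-cycling cDC-like cells had 304 CPM in LOY and 300.3 CPM in control.

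The cluster led by Chil3 and Vcan, numbered 12 and left unnamed (270 LOY and 181 control cells), had 309.8 CPM in LOY and 274 CPM in control, and its interval held 1 (1.13, 0.957 to 1.33). H3 in that cluster had 37.4 CPM in LOY and 3.73 CPM in control, a ratio of 10.0 (3.84 to 33.2). Hist1h3e alone gave 22 LOY and 2 control UMIs there. Of 8 members measured 3 were higher (Hist1h3e, Hist1h4d and Hist2h2ac) and 1 lower (Hist1h2bc), beside 6.92% and 13.8% of all genes. Hist1h3e (1.49 CPM in control) and Hist2h2ac (3.73 CPM in control) passed the filter of 10 CPM through LOY cells alone. Over all 67 members the median log2 ratio was 0.

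In neutrophil-like cells (122 LOY and 298 control) the sum was lower in LOY, at 674 CPM in LOY and 961 CPM in control, a ratio of 0.70 (0.55 to 0.88). Neutrophils are short-lived cells that have left the cycle. Hist1h2bc led their sum, at 299 CPM in LOY and 481 CPM in control, followed in control by Hist1h1c, at 91.5 CPM in LOY and 209 CPM in control, and in LOY by Hist1h4i, at 125 CPM in LOY and 82.2 CPM in control. Hist1h4i gave most of the H4 sum there, which was 133 CPM in LOY and 96.3 CPM in control. Hist1h1b had few UMIs, at 8.32 CPM in LOY (1 UMI) and 11.6 CPM in control (9 UMIs). The 290 non-cycling control cells had 0 of its UMIs, which allows up to 4.22 CPM. Its control UMIs thus came from cells of this class that passed a cell cycle list. Of 9 members measured 0 were higher and 4 lower (Hist1h1c, Hist1h2be, Hist1h2bc and Hist1h2ac), beside 14.3% and 28.5% of all genes. The LOY cells of this class were shallow, with a median of 819 UMIs against 2039.5 UMIs in control. Other lists moved with the library in these cells. The G2/M list summed to 191 CPM in LOY and 533 CPM in control, with 12 of 14 measured genes lower and 0 higher in LOY. The 6 genes of RNA quality and capture summed to 64182 CPM in LOY and 46361 CPM in control, and the dissociation genes to 28253 CPM in LOY and 36611 CPM in control. The part of depth, cycle genes and RNA quality in the neutrophil ratios was not tested.

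Across the 11 classes with at least 20 non-cycling cells in each library, H3 and H4 had the most classes above 1. The H4 ratio was above 1 in all 11, from 1.48 to 3.71, with an interval above 1 in 6. H3 was above 1 in 10 of 11, from 0.69 in NK cell-like cells to 10.2 in the Chil3 and Vcan cluster, with an interval above 1 in 5. H1 was above 1 in 2 of 11 classes, H2A in 4 and H2B in 6, and none of these types had an interval above 1. The intervals of H1 lay below 1 in 2 classes, of H2A in 1 and of H2B in 2. These classes share the 2 libraries, so they are not separate tests of the genotype.

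**Figure D5:**
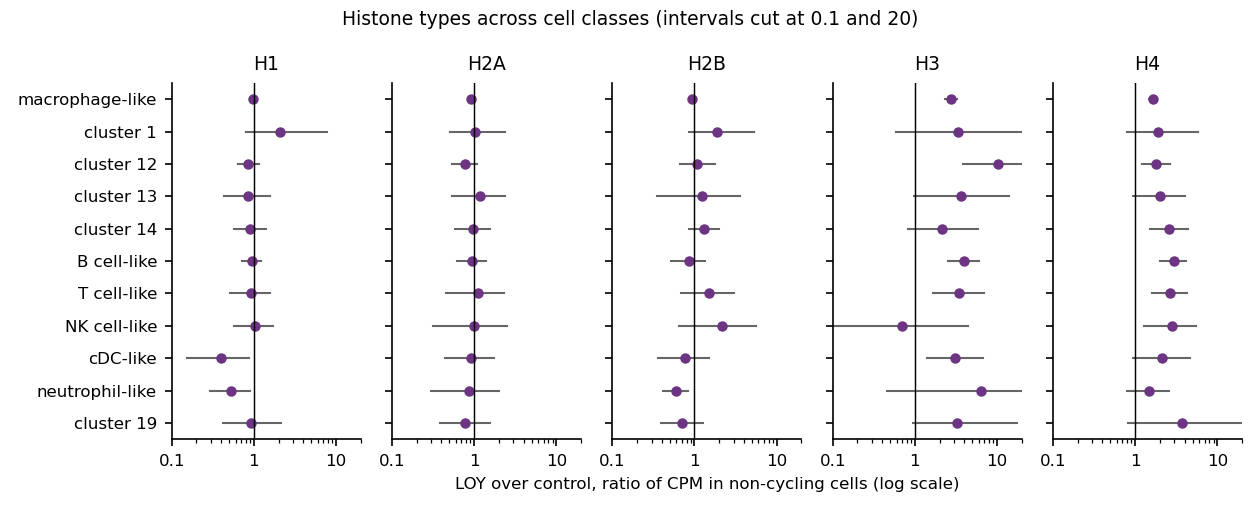
LOY over control ratio of each histone type in the non-cycling cells of 11 classes, on a log axis with 95% counting intervals drawn as far as 0.1 and 20. The H4 points lie between 1.48 and 3.71, while the H1 points lie on both sides of 1.

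The genes whose pattern was most like the histone sum were sought over 20 groups of class, state and library with at least 50 cells, among 10607 genes, by Pearson's r of log2(CPM + 10). They were Esco2 (0.883), Mastl (0.881), Neil3 (0.879), Ankle1, Fbxo5, Iqgap3, Mxd3, BC030867, Pbk and Cdca5 (0.860). Esco2 joins sister chromatids in S phase, and Mastl is a kinase that acts on entry into mitosis. None of the 10 is in the S or G2/M list that set the states, but the groups share libraries and states, so r is a description.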

How the data were processed

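Cardiac leukocytes were profiled as 2 libraries, 1 of LOY and 1 of control marrow, each of 3 pooled mice. Per gene and barcode, the deposited files hold UMI counts with no normalization, made with Cell Ranger 5.0.0 on mm10, per the submitters' processing notes. The annotation release and the barcode filter are not given in the sources used here. Barcodes stayed in with 500 UMIs and 200 genes or more and no more than 10% of UMIs from mitochondrial genes. The tools were matplotlib 3.10.9, igraph 0.11.9, pandas 2.3.3, scipy 1.17.1, numpy 2.4.6, anndata 0.12.19 and scanpy 1.11.5 in Python 3.11.15. Scrublet doublets were removed within each library. Its automatic threshold marked 88 control and 0 LOY barcodes, so in LOY the 237 highest scores were removed (0.8% per 1000 barcodes), and the libraries were thus treated unequally.

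Cells of both libraries entered 1 clustering, on 2000 variable genes (30 components, 15 neighbours, Leiden resolution 1) without the members, the cell cycle lists and sex-linked, mitochondrial, ribosomal, haemoglobin and antigen-receptor genes. Clusters were named from listed markers of 19 cell types, and the study's names may differ. Sums of UMIs were taken per class, state and library and scaled to CPM. Differences were called past 1.5-fold on log2((LOY CPM + 10)/(control CPM + 10)), among genes at 10 CPM or more in either group. Ratios of sums have exact conditional, sums exact Poisson and shares exact Clopper-Pearson 95% intervals, and where a count was 0 its limit is that of 3 counts. Named members are the 4 with the most UMIs of each type and the 5 at either end of the macrophage-like ratios among those with 50 UMIs or more. Members named outside this rule were chosen after their values were seen, as were the named members of other lists beyond the 3 with the most UMIs and the 2 at either end. Of 28 listed processing genes 26 were found. The members and lists were chosen with earlier results of these data known. The steps were tested on simulated data. Transcript ends come from GENCODE M21 and promoters from RefSeq on the same build.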

Additional observations from a re-analysis of the deposited data

Results flagged for a closer look

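Neutrophil-like and macrophage-like cells differed in direction, and the difference between them was not tested. The histone sum had a LOY over control ratio of 0.70 in neutrophil-like cells (0.55 to 0.88) and 2.59 in macrophage-like cells. H1 had a ratio of 0.48 in neutrophil-like cells (0.27 to 0.82) and 2.69 in macrophage-like cells, and H2B 0.62 (0.44 to 0.86) and 1.53. Those values join macrophages in and out of cycle. In non-cycling cells alone the sum had a ratio of 0.70 in neutrophil-like cells (0.54 to 0.88) and 1.08 in macrophage-like cells (1.03 to 1.12). H1 had 0.53 (0.29 to 0.90) and 0.98 (0.89 to 1.07), and H2B 0.59 (0.41 to 0.83) and 0.92 (0.86 to 0.99), so for neither type were the intervals on opposite sides of 1. The median depth of neutrophil-like cells was 819 UMIs in LOY and 2039.5 UMIs in control, and its part in these ratios was not tested.

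Within macrophage-like cells H2A and H2B differed in direction between the states, also without a test of the difference. H2A had a ratio of 1.37 in S and G2/M cells and 0.91 in non-cycling cells (0.838 to 0.997). Without Hist1h2ap, whose UMIs may be shared with other copies, these were 2.20 (2.04 to 2.37) and 0.95 (0.871 to 1.04), and the non-cycling interval held 1. H2B had a ratio of 3.14 in S and G2/M cells and 0.92 in non-cycling cells (0.86 to 0.99). Hist3h2a and Hist1h2bc, which led these types out of cycle, had lower values in LOY in both states, with intervals that held 1 in S and G2/M cells.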

How the results depend on the processing

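Of 131 alternative values over 15 results, 81 lay inside the counting interval or, for counts of members, within 1.5 times, 46 lay outside and 4 turned direction. Cluster 1 added, the cycling cluster left out of the non-cycling cells, and Hist1h2ap or Hist3h2a and Hist1h1c left out were chosen after seeing the data. Cluster 1 is the unnamed cluster led by Ly6c2, with 885 LOY and 26 control cells. No paired analysis was possible because each group is 1 library. The Lyve1 cluster lacks most S and G2/M cells, which lay in the cycling cluster. The causes of the moves were not tested.

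The ratio over all macrophage-like cells (2.59) was 2.51 with doublets kept, 2.13 at resolution 0.5, 2.20 with each library clustered alone, 2.42 without the member with the most UMIs, 2.18 with cluster 1 added and 0.875 in the Lyve1 cluster alone. The non-cycling ratio (1.08) was 0.810 in the Lyve1 cluster. The cycling ratio (1.86) was 1.77 with doublets kept, 2.63 thinned to 2000 UMIs, 1.63 at resolution 0.5, 1.67 with libraries clustered alone, 2.48 and 1.58 with the thresholds halved and doubled, and 1.65 by cell cycle clusters. It was 1.22 in the Lyve1 cluster, 2.04 without the leading member, 1.64 with cluster 1 and 2.06 without Hist1h2ap. The non-cycling ratio of members with a poly(A) signal (0.79) was 1.02 without Hist3h2a and Hist1h1c.

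Cycling over non-cycling in LOY (11.2) was 10.6 thinned, 9.99 at resolution 0.5, 10.2 with libraries clustered alone, 9.22 and 14.3 with thresholds halved and doubled, 18.8 by cell cycle clusters, 1.34 in the Lyve1 cluster and 8.77 without the leading member. In control (6.46) it was 4.38 thinned, 3.99 and 9.67 with thresholds halved and doubled, 11.8 by cell cycle clusters, 0.887 in the Lyve1 cluster and 4.60 without the leading member.

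The 21 members higher in LOY over all macrophages became 4 in the Lyve1 cluster and 8 with 50 CPM added. The 2 higher in non-cycling cells became 4 without mitochondrial and ribosomal UMIs in the total and 0 with 50 CPM added. The cycling share in LOY (20.1%) was 22.6% thinned, 18.2% at resolution 0.5, 24.8% and 15.2% with thresholds halved and doubled, 9.12% by cell cycle clusters and 16.9% in the Lyve1 cluster. In control (7.41%) it was 8.99% thinned, 13.9% and 4.30% with thresholds halved and doubled, 3.25% by cell cycle clusters and 6.07% in the Lyve1 cluster. The neutrophil-like ratio (0.70) was 0.478 among cells with at least 1000 UMIs. Values for B cell-like cells and cluster 12 stayed inside their intervals where they could be had. Thinned values for neutrophil-like and B cell-like cells were not run, with under 20 cells left, nor values of cluster 12 where cluster numbers change.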

Other observations

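The few platelet-like cells (8 LOY and 19 control) had a histone sum of 3559 CPM in LOY and 6344 CPM in control, above that of non-cycling macrophages in both libraries. Hist1h2bc gave 27 LOY and 139 control UMIs there, 1848 CPM in LOY and 3570 CPM in control. Hist1h1c had 753 CPM in LOY and 1824 CPM in control, and Hist1h4i 479 CPM in LOY and 565 CPM in control. These 3 genes also led the sum in neutrophil-like cells. Hist1h2ae and Hist1h1b, which were high in cycling macrophages, were not among the leading genes of either class.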
